A study of Homo sapiens with 16 samples.

Results

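In CAL51 cells, 12746 of 55510 gene symbols reached a set floor of expression in vehicle at both times. Of these, 7 met the bounds on effects at both doses of CC-671. They were at least 2-fold higher than vehicle at 6 h. At 24 h they stood no more than a log2 effect of 0.25 above it. The genes were KIF18A, PIGZ, PPP1R3F and 4 loci known by clone names, RP11-229E13.2, RP11-305E6.4, RP11-145F16.2 and RP11-697E2.7. They were chosen by their measured values. Counts were scaled to a common library total and given as CPM, and an effect was the log2 ratio of the mean CPM of treated and DMSO libraries at the same time, with 0.1 CPM added to each mean. A gene needed at least 2 CPM in both DMSO groups, which 12746 genes reached, an effect of 0.25 or lower at 24 h at 3 and 10 µM, and an effect of 1 or higher at 6 h at both doses. The comparisons with DMSO and the return by 24 h are therefore given as descriptions, and only the difference between the doses, which the rule did not bound, was tested.

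CAL51 is an established line of human breast cancer cells of the triple-negative class, grown here at passage 10. The compound CC-671 is an inhibitor of 2 kinases, TTK of the mitotic spindle checkpoint and CLK2, which phosphorylates SR proteins of splicing. RNA was sequenced after DMSO (2 libraries), 3 µM CC-671 (3 libraries) or 10 µM CC-671 (3 libraries) for 24 h, and after the same vehicle and doses for 6 h, with 2, 3 and 3 libraries. No untreated or time zero library was analysed here, and all cells came from 1 line.

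Gene totals ran from 104609173 to 123789361 read pairs in a library, and the 7 genes had 215 to 13813 counts in a library. The label of the line was compared with marker genes. ESR1 and PGR, the hormone receptor genes, stayed under 0.04 CPM in every group mean, while ERBB2 was measured at 85.9 to 185 CPM. The 5 epithelial markers summed to 1547 to 1993 CPM, the 7 fibroblast markers to 267 to 342 CPM and the 9 leukocyte markers to 6.78 to 13.4 CPM. The 4 mesenchymal markers summed to 1562 to 2287 CPM, mostly FN1, and the endothelial markers to 8.87 to 18.9 CPM. Most of the fibroblast sum was COL3A1, at 192 to 249 CPM in group means. PDGFRB was at 32.9 to 69.4 CPM, COL1A2 at 12.9 to 21.0 CPM and COL1A1 at 9.08 to 14.5 CPM. LUM was at 1.83 to 2.45 CPM, while DCN and THY1 were near 0. Most of the leukocyte sum was PTPRC, at 5.53 to 12.3 CPM in group means, while CD3E and CD3D were near 0. CD14, a monocyte marker, moved with treatment and time, with means of 0.558 CPM at 10 µM, 0.452 CPM at 3 µM and 0.140 CPM in DMSO at 24 h, and of 2.70, 1.65 and 0.147 CPM at 6 h. The rest of the leukocyte list did not move together. PTPRC was lower with treatment, at 5.53 and 6.62 CPM at 10 and 3 µM against 12.3 CPM in DMSO at 24 h. At 6 h it was at 8.25, 9.10 and 9.59 CPM. ITGAM stayed between 0.472 and 0.533 CPM, while CD79A and LYZ were higher with treatment, up to 0.835 and 0.150 CPM. The part of any other cell type in the levels of the 7 genes was not tested. Replicates are named as biological in the labels, with no further detail, so a p-value here covers only the spread among the libraries given. In bulk RNA, more cells in a state that expresses a gene and more RNA of it per cell cannot be told apart.

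The 3 annotated genes belong to separate processes. KIF18A encodes a kinesin-8 motor that walks to the plus ends of kinetochore microtubules, dampens their dynamics and helps chromosomes align at metaphase. PIGZ encodes a mannosyltransferase that can add a side-branch mannose to glycosylphosphatidylinositol (GPI), the lipid anchor that holds many proteins at the cell surface. PPP1R3F encodes a subunit of the family that directs protein phosphatase 1 to glycogen, where the phosphatase acts on the enzymes of glycogen metabolism.

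The promoters of these 3 genes are shown because they are the annotated start regions of genes whose RNA moved in the same way. Each runs from 250 bases before the RefSeq gene start to 50 bases from it, in the gene's own direction, and capitals mark the motif letters found. The KIF18A window is chr11:28108107-28108406 on the minus strand, the PIGZ window chr3:196968784-196969083 on the minus strand and the PPP1R3F window chrX:49269543-49269842 on the plus strand, all on GRCh38.p14.
KIF18A: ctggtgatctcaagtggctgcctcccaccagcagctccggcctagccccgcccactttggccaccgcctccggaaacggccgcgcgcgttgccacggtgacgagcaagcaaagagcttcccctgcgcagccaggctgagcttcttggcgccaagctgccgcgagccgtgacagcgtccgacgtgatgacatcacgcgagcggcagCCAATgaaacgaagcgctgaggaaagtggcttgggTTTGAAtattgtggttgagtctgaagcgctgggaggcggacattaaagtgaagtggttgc
PIGZ: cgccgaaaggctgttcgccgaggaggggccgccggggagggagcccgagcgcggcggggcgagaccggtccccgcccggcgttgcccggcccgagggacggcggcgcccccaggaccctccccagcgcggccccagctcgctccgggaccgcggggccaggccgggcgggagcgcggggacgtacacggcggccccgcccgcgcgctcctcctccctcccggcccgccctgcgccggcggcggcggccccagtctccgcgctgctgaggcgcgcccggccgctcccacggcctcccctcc
PPP1R3F: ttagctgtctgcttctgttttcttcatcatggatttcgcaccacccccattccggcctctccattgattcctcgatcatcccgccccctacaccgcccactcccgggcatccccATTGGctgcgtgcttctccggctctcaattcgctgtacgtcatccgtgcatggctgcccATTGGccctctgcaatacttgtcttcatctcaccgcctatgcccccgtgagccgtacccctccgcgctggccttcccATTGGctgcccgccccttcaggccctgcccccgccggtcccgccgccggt

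The windows shared no motif across all 3 genes among those searched on both strands. The CCAAT box (CCAAT, or ATTGG where it lies on the opposite strand) had 3 matches in the PPP1R3F window, at bases -136, -77 and 0, where 0 is the gene start, and 1 in the KIF18A window at base -45. None lay in the PIGZ window, and 34.6% of the 35116 human promoters of the same length held at least 1. The CHR letters (TTTGAA), found in many promoters of cell cycle genes, were present at base -10 of KIF18A and in 15.2% of all promoters. This motif was added with the genes known. Neither the CRE (TGACGTCA), held by 1.85% of all promoters, nor the E-box (CACGTG), held by 7.26%, was in these windows. The TATA box letters (TATAAA), held by 11.5% of all promoters, were not in them either. Exact forms of the AP-1, serum response element and NF-kB type motifs, held by 7.71, 0.0342 and 1.91% of all promoters, were also not found in the windows. GC content was 62% in KIF18A, 84.3% in PIGZ and 63% in PPP1R3F, beside a median of 58.7% over all promoters. The PIGZ window was thus above the 90th percentile of 74.7%.

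KIF18A, the spindle motor, doubled at 6 h and was slightly under vehicle at 24 h. At 24 h its levels were 59.5 and 58.6 CPM in DMSO, 56.5, 58.2 and 56.4 CPM at 3 µM, and 57.4, 53.3 and 55.8 CPM at 10 µM. At 6 h they were 57.0 and 58.0 CPM in DMSO, 114, 114 and 119 CPM at 3 µM, and 115, 118 and 121 CPM at 10 µM. All 6 treated libraries were below both DMSO libraries at 24 h, and all 6 were far above both at 6 h, with the 2 doses overlapping. On the same plain totals edgeR gave a 24 h adjusted p of 0.222 at 3 µM and 0.0283 at 10 µM. The share of all genes separated from DMSO in this way is not given here. Such separations in this and the following genes are therefore description only. The effects were -0.050 at 3 µM and -0.089 at 10 µM at 24 h, against 1.01 and 1.04 at 6 h. KIF18A was the member nearest to the bound at 6 h.

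PIGZ, the GPI mannosyltransferase gene, was measured at low counts, 302 to 741 per library. At 24 h it had 2.72 and 3.19 CPM in DMSO, 3.38, 2.88 and 2.79 CPM at 3 µM, and 2.98, 3.05 and 3.17 CPM at 10 µM. At 6 h the values were 2.75 and 2.78 CPM in DMSO, 6.22, 5.56 and 5.23 CPM at 3 µM, and 5.91, 6.55 and 6.47 CPM at 10 µM. The treated and DMSO libraries overlapped at 24 h and stood apart at 6 h, where the 2 doses overlapped each other. The effects were 0.028 and 0.049 at 24 h, against 1.01 and 1.16 at 6 h.

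PPP1R3F, the glycogen-targeting subunit gene, followed the dose at 6 h. At 24 h it had 2.94 and 2.75 CPM in DMSO, 3.10, 2.93 and 2.58 CPM at 3 µM, and 2.76, 2.69 and 2.50 CPM at 10 µM. After 6 h it had 3.06 and 2.79 CPM in DMSO, 6.19, 6.38 and 5.98 CPM at 3 µM, and 8.47, 7.91 and 7.12 CPM at 10 µM. At 24 h the 3 groups overlapped, and at 6 h they formed 3 separate steps. The effects were 0.011 and -0.099 at 24 h, against 1.05 and 1.39 at 6 h.

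**Figure D1:**
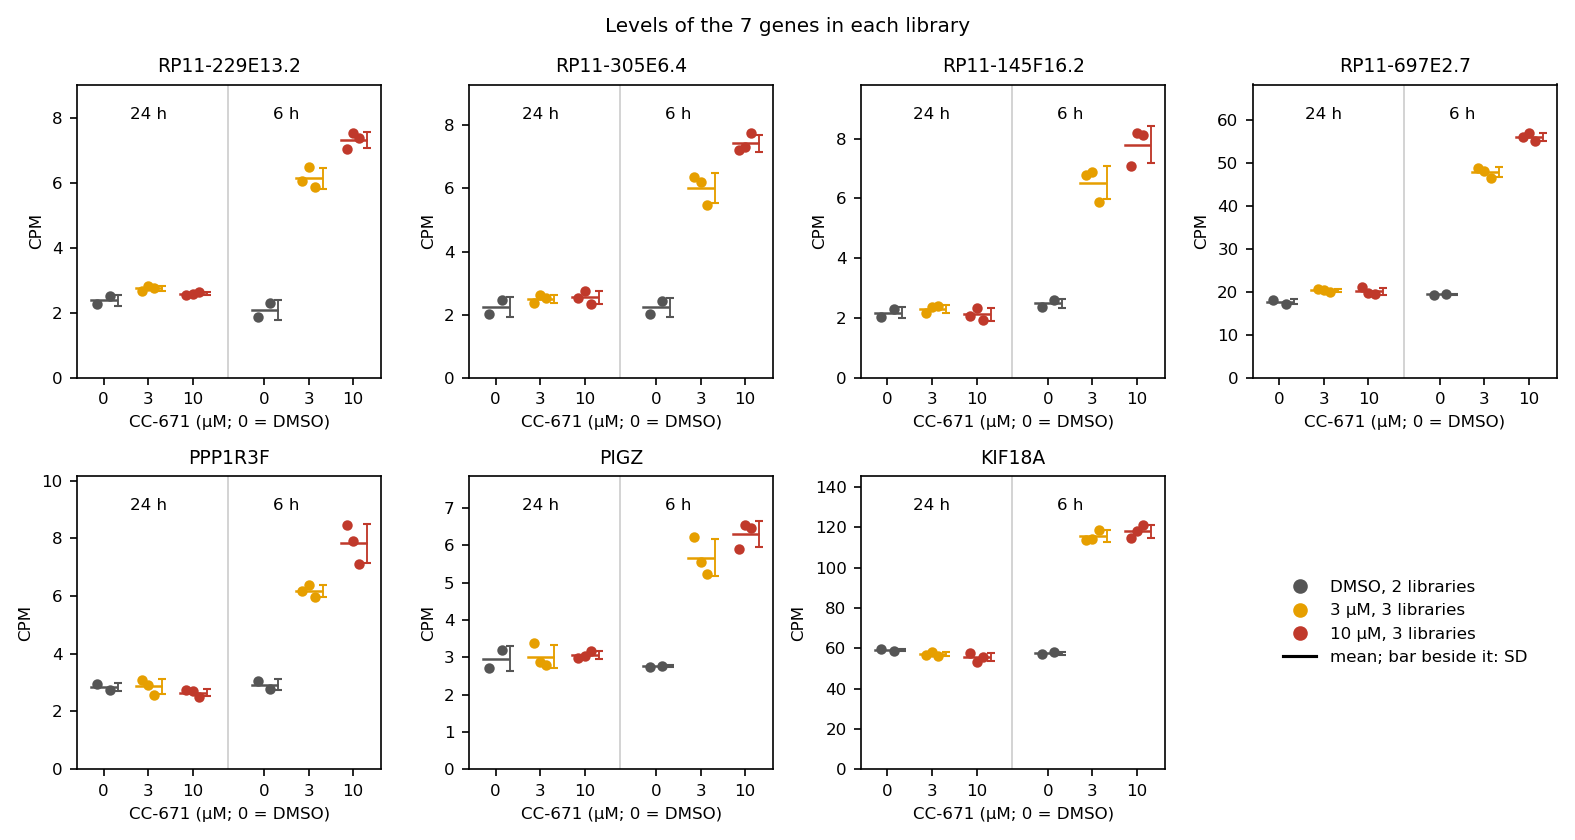
CPM (y axis, linear from 0) of the 7 genes in each of the 16 libraries, by CC-671 concentration in µM (x axis, 0 is DMSO), with 24 h left of 6 h in each panel. Points are libraries, horizontal lines are group means, and the bar beside each mean is 1 SD. The treated groups stand near DMSO at 24 h and above it at 6 h, and 5 genes show separate levels at 3 and 10 µM at 6 h.

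The 4 clone-named loci had the 4 largest 6 h effects of the 7 genes. No role is given to them, since the annotation used here holds no entry under their names. RP11-229E13.2 had 2.26 and 2.50 CPM in DMSO, 2.67, 2.84 and 2.75 CPM at 3 µM, and 2.54, 2.58 and 2.63 CPM at 10 µM at 24 h. The 6 h values were 1.87 and 2.31 CPM in DMSO, 6.06, 6.50 and 5.88 CPM at 3 µM, and 7.06, 7.54 and 7.38 CPM at 10 µM. Treated libraries lay just above both DMSO libraries at 24 h and well above them at 6 h. The effects of 0.20 and 0.11 at 24 h, against 1.51 and 1.76 at 6 h, made it the member with the largest early effect. It was also the member nearest to the bound at 24 h and to the floor in DMSO.

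RP11-305E6.4 showed a similar course. It had 2.03 and 2.47 CPM in DMSO, 2.36, 2.61 and 2.51 CPM at 3 µM, and 2.53, 2.76 and 2.34 CPM at 10 µM at 24 h. At 6 h it had 2.02 and 2.44 CPM in DMSO, 6.37, 6.19 and 5.48 CPM at 3 µM, and 7.23, 7.32 and 7.75 CPM at 10 µM. The groups overlapped at 24 h, whereas at 6 h DMSO, 3 µM and 10 µM formed separate steps. The effects were 0.14 and 0.17 at 24 h, against 1.39 and 1.69 at 6 h.

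RP11-145F16.2 had 2.03 and 2.29 CPM in DMSO, 2.16, 2.36 and 2.38 CPM at 3 µM, and 2.06, 2.35 and 1.94 CPM at 10 µM at 24 h. The values at 6 h were 2.38 and 2.60 CPM in DMSO, 6.80, 6.89 and 5.90 CPM at 3 µM, and 7.08, 8.18 and 8.12 CPM at 10 µM. The groups overlapped at 24 h and were separate at 6 h, where 1 library at 3 µM was lower than the rest of its group. The effects were 0.083 and -0.032 at 24 h, against 1.36 and 1.61 at 6 h.

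RP11-697E2.7 had the most counts of the 4 loci. It had 18.2 and 17.2 CPM in DMSO, 20.6, 20.5 and 20.0 CPM at 3 µM, and 21.0, 19.8 and 19.4 CPM at 10 µM at 24 h. At 6 h it had 19.3 and 19.5 CPM in DMSO, 48.9, 48.0 and 46.6 CPM at 3 µM, and 56.2, 56.9 and 55.1 CPM at 10 µM. At 24 h every treated library was above both DMSO libraries by a small margin, and at 6 h the 3 groups were separate. The effects were 0.20 and 0.18 at 24 h, against 1.30 and 1.52 at 6 h. DMSO itself was lower at 24 h than at 6 h for this locus, by a log2 fold change of -0.14 ± 0.05 (SE).

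Across the 7 genes the median effect was 0.083 at 3 µM and 0.049 at 10 µM at 24 h, against 1.30 at 3 µM and 1.52 at 10 µM at 6 h. In folds, the 6 h medians were 2.46 at 3 µM and 2.88 at 10 µM. Libraries of a group varied little, with a coefficient of variation of 0.737 to 15.1% and a median of 5.07% over the 42 gene and group pairs. With edgeR's quasi-likelihood test and an adjusted p under 0.05, all 7 genes were higher than DMSO at 6 h at both doses, where 31.6% of the 22007 tested genes were higher at 3 µM and 34.0% at 10 µM. At 24 h, 2 of 7 differed from DMSO at 3 µM, beside 60.6% of all tested genes, and 2 of 7 at 10 µM, beside 63.6%. These counts follow from the rule and are given as description.

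The small 24 h values depended on scaling. Libraries were scaled by TMM, a trimmed mean of gene-wise ratios, which moved the log2 fold changes against DMSO at 24 h by 0.101 at 3 µM and 0.111 at 10 µM relative to plain totals. For KIF18A the edgeR log2 fold change at 24 h was -0.15 ± 0.04 (SE) at 3 µM and -0.20 ± 0.04 at 10 µM with TMM, and -0.050 and -0.089 on plain totals. The sign at 24 h depended on the scaling in 3 genes. PPP1R3F stood at -0.090 at 3 µM with TMM and at 0.011 on plain totals. PIGZ stood at -0.068 at 3 µM and -0.057 at 10 µM with TMM, and at 0.028 and 0.049 on plain totals. RP11-145F16.2 stood at -0.011 at 3 µM with TMM and at 0.083 on plain totals.

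**Figure D2:**
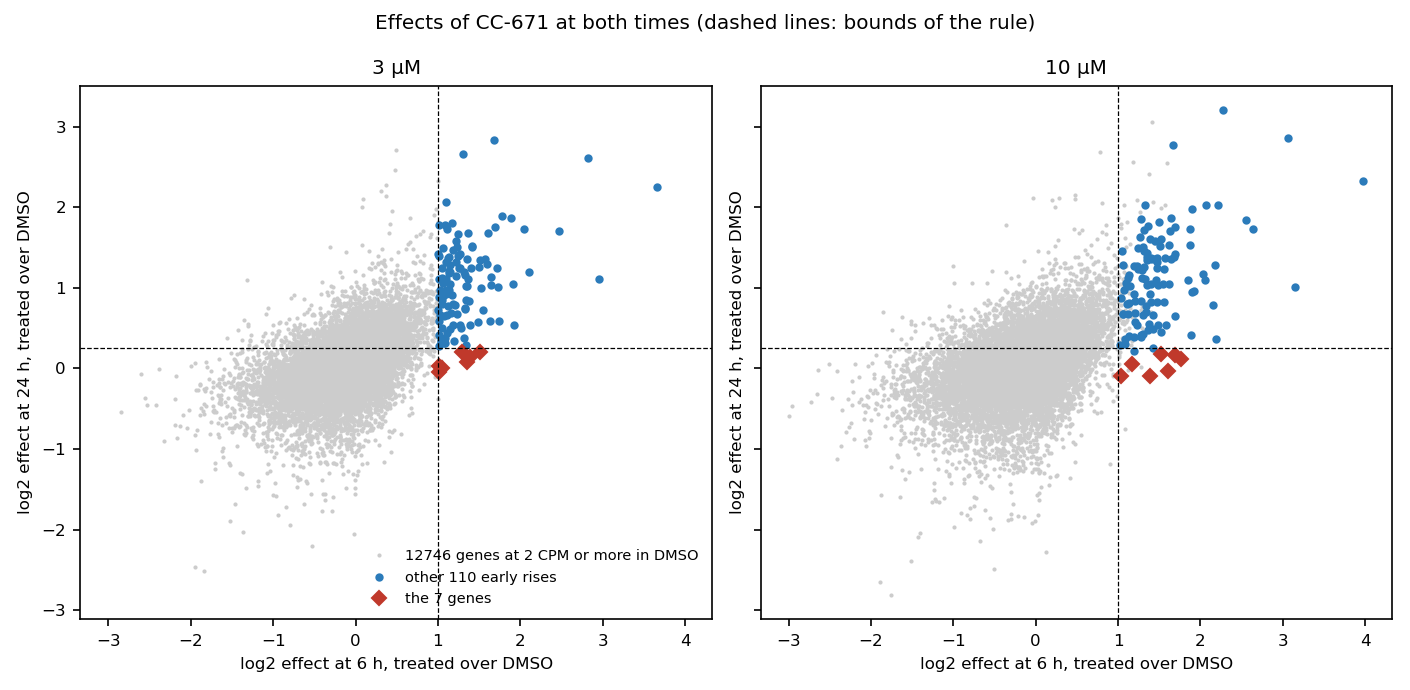
Log2 effects against DMSO at 24 h (y axis) and at 6 h (x axis) at 3 µM (left) and 10 µM (right), on CPM with 0.1 CPM added. Grey points are the 12746 genes at 2 CPM or more in DMSO, blue points the other 110 early rises, red diamonds the 7 genes, and dashed lines the bounds of the rule. The 7 genes lie at the lower edge of the early rises, with 24 h effects between -0.099 and 0.20.

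The rule did not bound the difference between doses, but this difference is formed from the same group means and libraries that the rule used. Its p-values are therefore those of genes chosen on these libraries. At 6 h, 5 of the 7 genes were higher at 10 µM than at 3 µM, and none was lower. Of all 22007 tested genes, 12.0% were higher, as were 61 of the other 110 early rises. The same 5 genes had every 10 µM library above every 3 µM library, which held for 15.1% of all tested genes. The median log2 fold change of the 7 genes was 0.26, beside 0.0067 over all tested genes.

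PPP1R3F had the largest step between doses. It averaged 7.83 ± 0.68 CPM at 10 µM and 6.18 ± 0.20 CPM at 3 µM (SD, n = 3 each), a log2 fold change of 0.35 ± 0.07 (SE; edgeR adjusted p = 0.00031). RP11-305E6.4 averaged 7.43 ± 0.28 CPM at 10 µM and 6.01 ± 0.47 CPM at 3 µM, a change of 0.31 ± 0.07 (edgeR adjusted p = 0.0018). RP11-697E2.7 averaged 56.1 ± 0.92 CPM at 10 µM and 47.8 ± 1.15 CPM at 3 µM, a change of 0.24 ± 0.03 (edgeR adjusted p = 7.5e-06). Each of these differences was larger than the spread between libraries, and each stayed past the threshold in all 23 alternative fits. RP11-229E13.2 rose by 0.26 ± 0.06 at 10 µM over 3 µM (edgeR adjusted p = 0.0034), and this also held in all 23. RP11-145F16.2 rose by 0.26 ± 0.07 (edgeR adjusted p = 0.0072). Its call was lost without 1 library at 3 µM, the third replicate, with a log2 fold change of 0.20 and an adjusted p of 0.0708 by edgeR.

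KIF18A and PIGZ did not pass the test between doses at 6 h. KIF18A averaged 118 ± 3.2 CPM at 10 µM and 116 ± 2.8 CPM at 3 µM, and the log2 fold change was 0.038, with a 95% interval of -0.029 to 0.10 (edgeR adjusted p = 0.442). For PIGZ the means were 6.31 ± 0.35 CPM at 10 µM and 5.67 ± 0.50 CPM at 3 µM. Its log2 fold change was 0.16, with a 95% interval of 0.014 to 0.31 before adjustment (edgeR adjusted p = 0.104). Without the first 3 µM replicate, the highest of its group, PIGZ passed at 0.23 (edgeR adjusted p = 0.035).

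At 24 h none of the 7 genes differed between 10 and 3 µM by edgeR, beside 6.35% of all tested genes. None had an unadjusted p under 0.05, and DESeq2 also called none. The log2 fold changes lay between -0.13 for RP11-145F16.2 and 0.016 for RP11-305E6.4. The 95% intervals left room for -0.32 to 0.060 in RP11-145F16.2 and for -0.12 to 0.020 in KIF18A. The means of RP11-229E13.2 were 2.58 ± 0.04 CPM at 10 µM and 2.76 ± 0.08 CPM at 3 µM, with every 10 µM library under every 3 µM library. That separation was seen in 14.5% of all tested genes, and the test gave an edgeR adjusted p of 0.526. An edgeR interaction of dose and time, added after the data were seen, passed the threshold for 4 of the 7 genes, beside 11.8% of all tested genes. It is built from the same 6 h and 24 h group means as the rule, so it is given as a description and nothing is read from it.

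**Figure D3:**
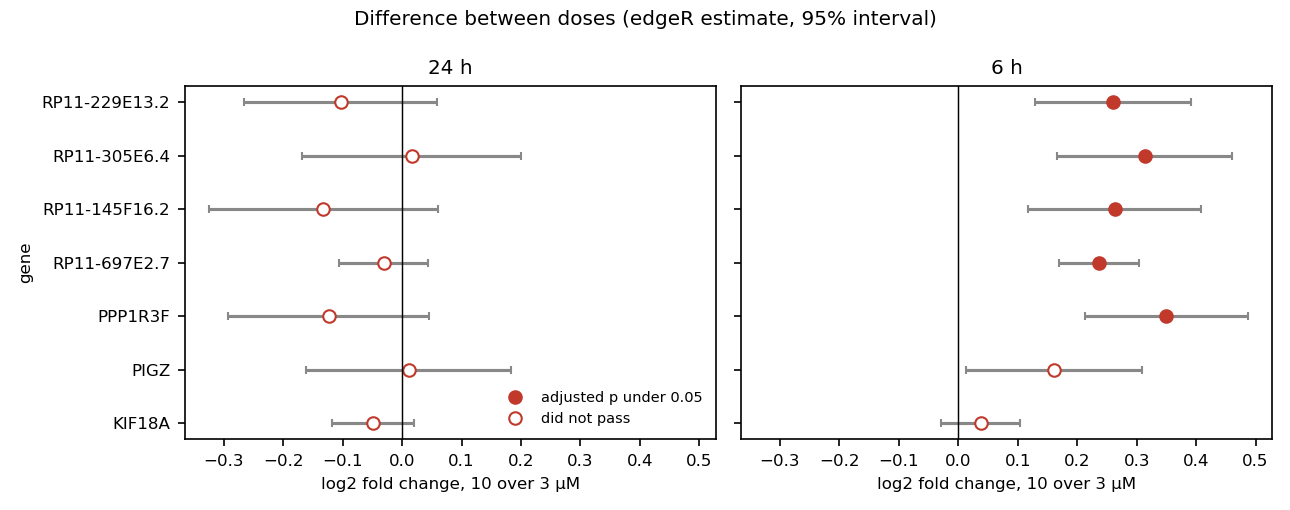
Log2 fold change of 10 µM over 3 µM CC-671 (x axis) for each of the 7 genes (y axis), at 24 h (left) and 6 h (right), as edgeR estimates with 95% intervals. Filled points passed an adjusted p under 0.05. At 24 h no gene passed, and at 6 h 5 genes passed with values of 0.24 to 0.35.

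The 7 genes were few among the early rises. A total of 117 genes met the floor and the 6 h bound at both doses, and the 7 genes were 5.98% of them. By contrast 61 of the 117 genes, or 52.1%, still had effects of 1 or higher at both doses at 24 h. The larger of the 2 effects at 24 h had a median of 1.10 over the 117 genes, with quartiles of 0.69 and 1.43, and KIF18A had the lowest value. On plain totals KIF18A was also the 1 gene of the 117 with both 24 h effects at or under 0. By edgeR with TMM, both 24 h log2 fold changes were below 0 in PPP1R3F, PIGZ and RP11-145F16.2 as well. Clone names were carried by 4 of the 7 genes and by 23 of the 117.

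Of the other 110 early rises, 61 were higher at 10 µM than at 3 µM at 6 h by the same edgeR test, or 55.5%, with a median log2 fold change of 0.18. Another 2 were lower, beside 12.9% of all tested genes, and the rest did not pass. At 24 h 15 of the 110 were higher at 10 µM, beside 2.49% of all tested genes, and 1 was lower, beside 3.85%. The difference between the 7 genes and the other 110 was not tested, because both sets were chosen on these libraries.

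None of the 7 genes was in any of 20 gene lists examined, which held 409 genes of early response, stress, splicing, cell cycle and other pathways. Beside 12746 genes at the DMSO floor these lists are small, so nothing is read from this absence. Of the 30 genes of the p53 target list, 9 were among the other early rises, beside 117 early rises in all 12746 genes at the floor. These 9 included CDKN1A, a cell cycle inhibitor, MDM2, the ubiquitin ligase of p53, and GDF15, a stress cytokine. The larger 24 h effects of the 9 ran between 1.25 and 3.20, where the rule places any early rise outside the 7 genes above 0.25.

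**Figure D4:**
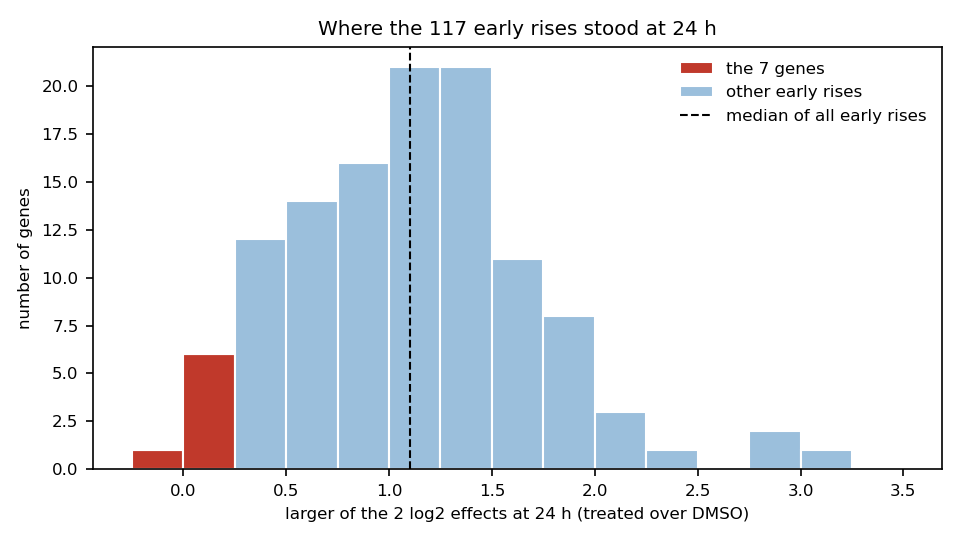
Number of genes (y axis) by the larger of the 2 log2 effects against DMSO at 24 h (x axis) for the 117 genes with effects of 1 or higher at 6 h at both doses. Red bars are the 7 genes, blue bars the other 110, and the dashed line is the median of 1.10. The 7 genes fill the lowest bars, up to 0.20.

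The bounds fell within a continuous range. Just outside the 24 h bound stood HIST1H2AC, a histone H2A gene, with a larger 24 h effect of 0.29, DNAJC27 with 0.30 and FKBP7, a peptidyl-prolyl isomerase of the endoplasmic reticulum, with 0.32. Just inside were RP11-229E13.2 and RP11-697E2.7, both at 0.20, and RP11-305E6.4 at 0.17. At the 6 h bound the nearest named gene outside was MXD3, a partner of MAX, whose smaller effect was 0.94. A pair of clone-named loci lay closer, at 0.996 and 0.96. The nearest inside were KIF18A and PIGZ at 1.01 each and PPP1R3F at 1.05. Under the floor in DMSO stood SCN2A, a sodium channel, at 1.89 CPM, DNAH10OS at 1.72 CPM and AQP4, a water channel, at 1.62 CPM. In all, 54 genes met the bounds on effects but not the floor.

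METTL15, a methyltransferase of the mitochondrial ribosome, overlaps KIF18A, and its RNA also rose at 6 h. In GENCODE 29 the 2 genes lie head to head on opposite strands and share 61 bases. At 24 h METTL15 had 19.2 and 17.9 CPM in DMSO, 26.8, 28.5 and 28.7 CPM at 3 µM, and 29.2, 29.4 and 29.7 CPM at 10 µM. At 6 h the levels were 18.6 and 18.6 CPM in DMSO, 36.5, 36.5 and 35.9 CPM at 3 µM, and 37.0, 40.2 and 38.7 CPM at 10 µM. Unlike KIF18A, every treated METTL15 library stood well above DMSO at both times. By edgeR the log2 fold change at 10 µM was 0.56 ± 0.04 at 24 h (adjusted p = 1.1e-11) and 1.04 ± 0.04 at 6 h (adjusted p = 5.7e-18). The libraries were strand-specific, but the strand setting of the counting is not given in the sources used here. Reads of the shared stretch could therefore have been counted for either gene or left as ambiguous.

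MIR610, a microRNA gene on the opposite strand, also overlaps KIF18A, by 96 bases. It had 0 CPM in every group mean and was not tested. The other neighbours of KIF18A examined were distant. CBX3P1, a pseudogene 213624 bases away, did not pass at 6 h (edgeR adjusted p = 0.880 at 3 µM and 0.291 at 10 µM). BDNF, a growth factor of neurons 298562 bases away, stood at 0.051 at 3 µM and rose by 0.46 at 10 µM at 6 h (edgeR adjusted p = 0.00023). BDNF-AS, its antisense RNA, lay 322446 bases from KIF18A and had 0.511 CPM or less in every 6 h group mean. It fell by 1.34 at 10 µM at 6 h (edgeR adjusted p = 4.9e-05).

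Neighbours of the other annotated genes moved in both directions. NCBP2 and NCBP2-AS2, the genes next to PIGZ, and SENP5 had log2 fold changes of 0.17 to 0.30 against DMSO at 6 h. DLG1, 73500 bases from PIGZ, fell by 0.31 at 3 µM and 0.36 at 10 µM at 6 h (edgeR adjusted p = 2.3e-09 and 1.4e-10). Of all tested genes 34.0% were higher and 33.6% lower at 10 µM at 6 h. PPP1R3F overlaps AC232271.1, a long non-coding RNA on the same strand, which was not tested here. CCDC22, also on the same strand as PPP1R3F, stood at -0.012 at 3 µM and fell by 0.24 at 10 µM at 6 h (edgeR adjusted p = 4e-06). HSPB1P2, a pseudogene 35342 bases from PPP1R3F, rose by 0.34 at 3 µM at 6 h (edgeR adjusted p = 0.0093). At 10 µM it stood at 0.084 (edgeR adjusted p = 0.524). FOXP3, a transcription factor gene 5017 bases from PPP1R3F on the opposite strand, fell by 1.07 at 10 µM and by 0.90 at 3 µM at 6 h (edgeR adjusted p = 0.0030 and 0.010). Its levels were low, with 6 h means of 0.108 CPM at 10 µM, 0.122 CPM at 3 µM and 0.225 CPM in DMSO. SYP, which encodes a synaptic vesicle protein, had log2 fold changes of 1.07 at 10 µM and 1.23 at 3 µM at 24 h, and fell by 0.61 and 0.33 at 6 h. NCBP2-AS1, next to PIGZ, stood at 1.45 at both doses at 24 h, with means of 0.108 CPM at 10 µM and 0.109 CPM at 3 µM, against 0.0364 CPM in DMSO. In gene structure the 3 annotated genes had little in common. KIF18A spans 87689 bases with up to 17 exons, PIGZ 22718 bases with up to 3 and PPP1R3F 31619 bases with up to 5, beside medians of 31628 bases and 9 exons over 11492 matched genes of at least 2 CPM.

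Among kinesins, KIF18A was 1 of few that were higher than DMSO at 6 h. Of 37 tested kinesin genes, KIF18A included, 5 were higher and 23 lower than DMSO at 6 h at each dose by edgeR. Over all tested genes 31.6% were higher and 31.6% lower at 3 µM at 6 h, and 34.0% were higher and 33.6% lower at 10 µM. At 24 h 6 were higher and 21 lower at 3 µM, and 5 were higher and 21 lower at 10 µM, counts that became 6 and 14, and 9 and 18, on plain totals. At 24 h 29.7% of all tested genes were higher and 30.9% lower at 3 µM, and 31.3% were higher and 32.3% lower at 10 µM. On plain totals these shares were 38.3 and 22.6% at 3 µM, and 39.9 and 24.2% at 10 µM. The family was assembled with the 7 genes known. KIF14, a motor of cytokinesis, fell by 1.38 at 24 h and by 1.65 at 6 h at 10 µM. KIF11, the motor that separates the spindle poles, fell by 0.80 at 24 h and by 1.02 at 6 h at 10 µM. Several other kinesins fell more than KIF11 at 10 µM and 6 h, with KIF4B at -1.43, KIF4A at -1.39 and KIF13B at -1.37.

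KIF18B, the nearest relative of KIF18A and also a kinesin-8, showed a smaller early rise. At 24 h it had 106 and 109 CPM in DMSO, 129, 117 and 120 CPM at 3 µM, and 117, 119 and 116 CPM at 10 µM. At 6 h it had 110 and 107 CPM in DMSO, 153, 149 and 149 CPM at 3 µM, and 172, 161 and 175 CPM at 10 µM. Its log2 fold changes at 6 h were 0.63 ± 0.04 at 10 µM (edgeR adjusted p = 1.5e-14) and 0.45 ± 0.04 at 3 µM (edgeR adjusted p = 2.7e-11). At 24 h they were 0.018 ± 0.037 at 10 µM (edgeR adjusted p = 0.699) and 0.085 ± 0.037 at 3 µM (edgeR adjusted p = 0.0493). The 3 µM call was lost in 13 alternatives, and on plain totals KIF18B was higher at 10 µM and 24 h by 0.13 (edgeR adjusted p = 0.00494). Between doses at 6 h KIF18B was higher at 10 µM by 0.18 ± 0.03 (edgeR adjusted p = 0.00018).

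**Figure D5:**
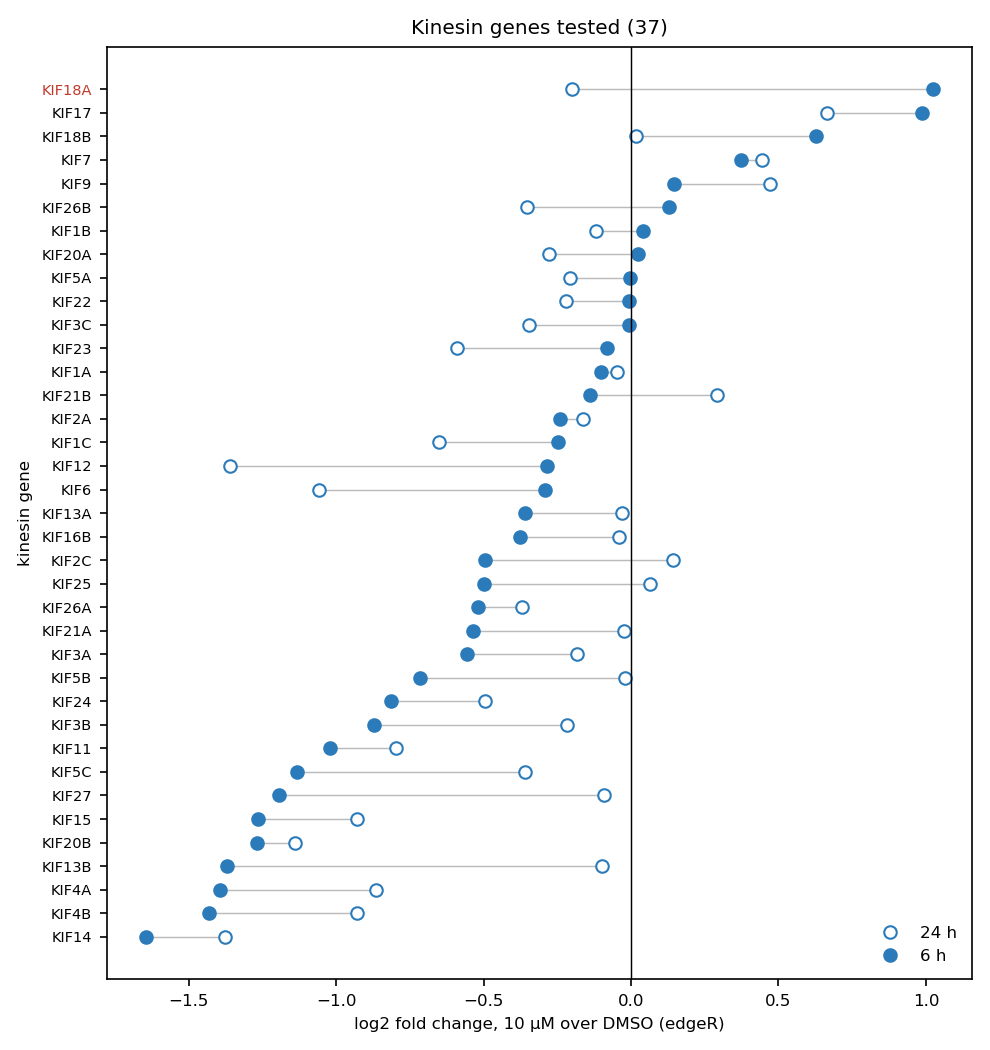
Log2 fold change of 10 µM CC-671 over DMSO (x axis, edgeR with TMM scaling) for the 37 tested kinesin genes (y axis, ordered by the 6 h value). Open circles are 24 h and filled circles 6 h. KIF18A has the highest 6 h value at 1.02 and stands at -0.20 at 24 h, and KIF14 has the lowest 6 h value at -1.65.

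Most of the mitosis genes examined were lower than DMSO at both times. Of 24 mitosis genes, 0 were higher and 20 lower than DMSO at 24 h at 3 µM and 0 were higher and 21 lower at 10 µM, and on plain totals 3 and 15 at 3 µM and 1 and 19 at 10 µM. Over all tested genes 30.9% were lower at 3 µM and 32.3% at 10 µM at 24 h, or 22.6 and 24.2% on plain totals. At 6 h 7 were higher and 13 lower at 3 µM, and 4 were higher and 16 lower at 10 µM, where 31.6% of all tested genes were lower at 3 µM and 33.6% at 10 µM. HMMR, a spindle-associated protein, fell by 0.57 at 24 h and by 2.08 at 6 h at 10 µM, and SPC25, a kinetochore subunit, fell by 1.01 at 24 h and by 2.10 at 6 h. CCNA2, cyclin A, fell by 0.86 at 24 h and by 1.47 at 6 h. The list median at 10 µM was -0.46 at 24 h and -0.26 at 6 h, beside 0.0055 over all tested genes at 24 h and 0.013 at 6 h.

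Of 20 tested PIG genes, PIGZ included, 4 were higher and 8 lower at 24 h at 3 µM and 4 and 7 at 10 µM by edgeR, and on plain totals these splits turned to 8 and 4, and 9 and 5. At 24 h 60.6% of all tested genes had changed in either direction at 3 µM and 63.6% at 10 µM, close to the share of the PIG genes. At 6 h 6 were higher and 9 lower at 3 µM, and 5 were higher and 9 lower at 10 µM, beside 31.6% of all tested genes in each direction at 3 µM, and 34.0% higher and 33.6% lower at 10 µM. PIGP, a subunit of the enzyme that starts GPI synthesis, rose by 0.27 at 24 h and fell by 1.55 at 6 h at 10 µM. PIGN, an ethanolamine phosphate transferase of the pathway, fell by 1.99 at 24 h and by 0.81 at 6 h at 10 µM. PIGV, another GPI mannosyltransferase, stood at 0.060 at 24 h and fell by 0.88 at 6 h at 10 µM.

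Of 6 tested PPP1R3 genes, PPP1R3F included, 2 were higher and 1 lower at 24 h at 3 µM, and 3 were higher and 2 lower at 10 µM, or 3 and 0 on plain totals. With 60.6% of all tested genes changed at 3 µM and 63.6% at 10 µM at 24 h, nothing about the family is read from so few genes. At 6 h 2 were higher and 1 lower at 3 µM, and 4 were higher and 1 lower at 10 µM, beside 31.6 and 34.0% of all tested genes higher. PPP1R3E, another glycogen-targeting subunit, rose at both times, by 0.42 ± 0.06 at 24 h and 0.52 ± 0.05 at 6 h at 10 µM (edgeR adjusted p = 1.4e-07 and 1.4e-09). PPP1R3G, also of this family, was near the limit of detection, with DMSO means of 0.493 CPM at 24 h and 0.376 CPM at 6 h, and fell by 0.49 at 24 h and by 1.12 at 6 h at 10 µM.

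The share of counted pairs outside annotated exons moved with treatment at both times. At 24 h it was 4.43 ± 0.24% in DMSO (n = 2), 5.80 ± 0.17% at 3 µM and 5.93 ± 0.20% at 10 µM (SD, n = 3 each). At 6 h it was 4.57 ± 0.27% in DMSO, 5.91 ± 0.38% at 3 µM and 6.65 ± 0.38% at 10 µM. The treated libraries stayed above DMSO at 24 h, when the 7 genes stood near DMSO. The part of this share in the levels of the 7 genes was not tested.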

How the data were processed

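Strand-specific poly-A RNA libraries of CAL51 cells, 16 in all, were sequenced as read pairs, per the labels' protocols. STAR, HTSeq, edgeR and the build hg19 (GRCh37) are listed, without settings, per the submitters' processing notes. Each file the authors deposited holds the raw count of each gene symbol for 1 library. The sources used here do not give the strand setting, duplicate handling or annotation, so overlapping and clone-named genes are uncertain.

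Non-gene entries of the counter, 16.9 to 20.2% of pairs, were left out of library totals and tests. The rule was applied to CPM on plain totals. Tests were edgeR 4.0.16 quasi-likelihood F tests (R 4.3.3) on 6 group means over all 16 libraries, with TMM factors of 0.963 to 1.05 and filterByExpr (minimum count 10, minimum total 15). They were two-sided, adjusted by Benjamini and Hochberg's method over all 22007 tested genes and a threshold of 0.05. All 7 genes passed the count filter. On simulated counts of this design with 200 planted genes, 21495 genes were tested between 10 and 3 µM at 6 h. The test recovered 98.5% of 1.5-fold changes. Of the genes it called, 7.51% had not been planted, beside the adjusted p threshold of 0.05. No smaller fold was planted. The dose differences of the 7 genes at 6 h were 1.03- to 1.27-fold, so the recovery of changes of that size was not simulated.

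The members, gene lists, families and tests were chosen with earlier results of these data known. All 7 members are described, with at most 4 clone names given. The genes named near the bounds were the 3 nearest on each side. Those of a list were taken from the largest changes that passed, except KIF11, as several other kinesins fell more. KIF18B was added as a relative of KIF18A, and genomic neighbours were added after their values were seen. Gene structure and neighbours came from GENCODE 29 on GRCh38 and promoters from RefSeq on GRCh38.p14. Of the 7 symbols 3 were matched in both. The builds differ from that of the counts. Alternatives were DESeq2 1.42.0, RLE scaling, no scaling factor, 2 count filters, a fit of the compared groups alone, replicate number as a block, each library left out in turn, and other settings of the rule. The test of whether the difference between doses differs between times was added after the data were seen.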

Additional observations from a re-analysis of the deposited data

Results flagged for a closer look

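An interaction of dose and time passed the edgeR threshold in 4 of the 7 genes, which is why these values are listed. It was added after the data were seen and uses the same 6 h and 24 h group means as the rule that chose the genes, so the values are descriptions of chosen genes and no p-value is read from them. The log2 fold change of 10 over 3 µM at 24 h minus that at 6 h was -0.4732 in PPP1R3F, from -0.12 at 24 h and 0.35 at 6 h. In RP11-697E2.7 it was -0.2675, from -0.03 at 24 h and 0.24 at 6 h. RP11-229E13.2 had -0.3637, from -0.10 at 24 h and 0.26 at 6 h. RP11-145F16.2 had -0.3951, from -0.13 at 24 h and 0.26 at 6 h. The rule capped the 24 h effects of both doses from above only and set no bound on the difference between them.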

How the results depend on the processing

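Membership depended on where the bounds lay. The rule gave 7 genes, 14 with a DMSO floor of 1 CPM, 2 with a floor of 5 CPM, 4 with 1 CPM added before the ratio, 1 with a 24 h bound of 0 and 19 with a bound of 0.5. CPM on TMM library sizes gave 8 genes, 5 of them shared, without KIF18A and PIGZ. Leaving out 1 library gave 6 to 8 genes. KIF18A left without DMSO replicate 1 or 3 µM replicate 3 of 6 h, PIGZ without 3 µM replicate 1 of 6 h, RP11-229E13.2 and PPP1R3F without DMSO replicate 2 of 6 h, and RP11-229E13.2 and RP11-305E6.4 without DMSO replicate 2 of 24 h.

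Counts of the 7 genes that passed at 6 h against DMSO, and between doses at 24 h, were the same in all alternatives. Between doses at 6 h the count was 4 to 6. Against DMSO at 24 h, 2 genes at 3 µM became 1 with RLE, with a minimum count of 1 and with DESeq2, and 1 to 2 on leaving out a library. At 10 µM 2 became 1 with DESeq2, 3 in the fit of the compared groups alone, where RP11-697E2.7 passed too, and 1 to 2 on leaving out a library. With no scaling factor and with the 1 CPM filter RP11-697E2.7 passed at 10 µM in place of PPP1R3F, and with no scaling factor RP11-229E13.2 passed at 3 µM in place of KIF18A. For the change of the dose difference with time, 4 became 2 without 3 µM replicate 2 of 24 h (range 2 to 4). Leaving out 1 library turned the sign of 3 values near 0: between doses at 24 h, RP11-305E6.4 ran from -0.043 to 0.068 and PIGZ from -0.042 to 0.098, and KIF18B at 10 µM and 24 h ran from -0.0027 to 0.035.

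With replicate number as a block, 1 in place of 2 genes passed at 10 µM and 24 h and no other count of the 7 genes moved. Deviations of libraries with the same number correlated at -0.076 to 0.081 over 36 pairs, so no pairing by number was detected. Whether libraries of the same number were handled together is not given in the labels. The cause of these moves was not tested. With 2 DMSO libraries per time, 1 library can decide membership.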
